A study of Mus musculus with 2 samples.

Results

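The 10 genes described here serve antigen presentation on MHC class I, including the cutting of proteins into peptides by the immunoproteasome. They are *H2-K1*, *H2-D1*, *H2-T23*, *B2m*, *Tap1*, *Tap2*, *Psmb8*, *Psmb9*, *Psmb10* and *Nlrc5*, taken by symbol from the 32285 genes measured. They were followed in mononuclear cells of injured quadriceps from male WT C57BL/6J mice aged 14 weeks, either 1 or 3 days after a single intramuscular injection of 100 µL of 1.2% BaCl2, a salt that kills myofibres and lets the muscle regenerate. Each day is 1 single-cell RNA-seq library from 5 pooled mice, frozen and thawed before capture. Myofibres are too large for this method and are not in the suspension. With 1 library per day there was no replicate, so no test was made and no p-value is given. The level of a gene in a cell type is its unique molecular identifiers (UMIs, the molecules counted) per 1000000 UMIs of all genes in the same cells (CPM). A range given in parentheses is a 95% confidence interval, by the exact Poisson method for levels, the Clopper-Pearson method for shares and the exact binomial method for log2 ratios of day 3 over day 1. These intervals hold the error of counting and leave out the variation among mice and among libraries.

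Cells were called from the 7367 (day 1) and 6640 (day 3) barcodes that held most UMIs, and were kept where they had at least 1000 UMIs, at least 200 genes and at most 7.5% mitochondrial UMIs. Of the barcodes taken, 517 on day 1 and 2013 on day 3 were over the mitochondrial limit, so this limit weighed more on the library of day 3. This left 6735 cells with a median of 9389 UMIs on day 1 and 4627 cells with a median of 14548 UMIs on day 3, and no barcode was a cell in both libraries. The labels name the same kit for both libraries, while their lists of possible barcodes differ, and any effect of that difference and the effect of day cannot be told apart. Cells were named from marker genes by their cluster. Monocyte/macrophage-like cells numbered 3847 and 3069 on days 1 and 3, neutrophil-like cells 2072 and 255, fibroblast/FAP-like cells (fibro-adipogenic progenitors, the connective tissue cells of muscle) 656 and 846, and dendritic cell-like cells 60 and 189. Endothelial cell-like cells numbered 83 and 27, T/NK cell-like cells 11 and 41, and satellite cell/myoblast-like cells 6 and 200. Days were compared only in the 4 types with at least 50 cells on both. All markers of the list that gave the name were at least 2-fold higher in the named cells than in the rest, except 1 of the 8 dendritic cell markers and 2 of the 8 classical monocyte markers, whose clusters were counted as monocyte/macrophage-like.

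In every nucleated cell, proteasomes cut cytosolic proteins into peptides, the TAP transporter moves these peptides into the endoplasmic reticulum, and a heavy chain paired with β2-microglobulin carries them to the surface for CD8 T cells and NK cells to read. Interferons raise most of these genes together and replace the 3 constitutive catalytic subunits of the proteasome with the immunoproteasome subunits, which changes the peptides that are made. Leukocytes carry this machinery at high levels, whereas muscle cells are known for low class I expression, and injured muscle holds both.

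Of the 10 genes, 7 lie in the MHC on chromosome 17 of the mouse genome (mm10, that is GRCm38, with GENCODE M21 gene models). *H2-K1* lies at chr17:33996017-34000347 on the minus strand. *Psmb9* at chr17:34181987-34187764 and *Tap1* at chr17:34187553-34197225 are on opposite strands and overlap at their starts, followed by *Psmb8* at chr17:34197721-34201454 and *Tap2* at chr17:34203527-34216321, both on the plus strand. *H2-D1* lies at chr17:35262730-35267499 and *H2-T23* at chr17:36029773-36032855. The remaining genes are *B2m* at chr2:122147686-122153083, *Psmb10* at chr8:105935735-105938444 and *Nlrc5* at chr8:94434356-94527272. A read of this method falls near the end of a transcript. Over the last 500 bases of each transcript, no window of 98 bases, the read length, was shared with another gene for 9 of the 10 genes, and 10.4% of the windows of *H2-T23* also occurred in *Hook2* or *Rab33b*, so its count is the least certain.

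RefSeq promoters (GRCm38.p6, 250 bases before to 50 after the start) were at hand for 8 of the 10 genes, and motifs were searched on both strands. The interferon-stimulated response element (ISRE, GAAANNGAAA, bound by IRF factors) was found in 2 of these 8, against 3.44% of 32851 promoters. The gamma-activated site (GAS, TTCNNNGAA) was found in 1, against 8.30%, and the NF-kB motif in 3, against 8.46%. The CCAAT box (CCAAT) was found in 6, against 37.4%. A match is only a stretch of letters and not evidence of binding. The stretches with these matches are shown because class I genes are textbook targets of these factors, and the capitals mark the motifs.

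H2-K1, chr17:34000334-34000470, minus strand, 2 overlapping NF-kB matches and 2 CCAAT boxes: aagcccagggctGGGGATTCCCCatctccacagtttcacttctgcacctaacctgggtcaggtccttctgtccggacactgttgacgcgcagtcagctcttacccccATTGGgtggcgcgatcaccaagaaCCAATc

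H2-D1, chr17:35262911-35263057, plus strand, 2 overlapping NF-kB matches and 2 CCAAT boxes: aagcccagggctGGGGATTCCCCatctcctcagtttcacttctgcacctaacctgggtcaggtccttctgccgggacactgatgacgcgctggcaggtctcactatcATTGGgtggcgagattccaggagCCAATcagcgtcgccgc

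H2-T23, chr17:36032737-36032837, minus strand, ISRE and CCAAT box: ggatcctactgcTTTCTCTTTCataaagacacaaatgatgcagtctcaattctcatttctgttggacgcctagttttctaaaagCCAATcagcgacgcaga

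B2m, chr2:122147536-122147650, plus strand, ISRE, NF-kB and CCAAT box: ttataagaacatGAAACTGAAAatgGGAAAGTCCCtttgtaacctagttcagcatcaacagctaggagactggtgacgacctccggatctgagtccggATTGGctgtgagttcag

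Psmb8, chr17:34198086-34198118, plus strand, GAS: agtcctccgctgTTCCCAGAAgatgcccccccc

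Tap1, chr17:34187322-34187350, plus strand, CCAAT box: gggctcggctttCCAATcagcggctgcgc

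The promoter windows of *Tap1* and *Psmb9* overlap over 275 bases, from chr17:34187306-34187580, so the CCAAT box printed for *Tap1* is also the match of *Psmb9*, read from the other strand. *Psmb10* held none of the 4 motifs in its window, and *Psmb8* held a GAS but no CCAAT box.

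In monocyte/macrophage-like cells, the largest population, the summed level of the 10 genes was 2706 CPM (2691 to 2721) on day 1 and 3557 CPM (3540 to 3574) on day 3, a log2 ratio of 0.39 (0.38 to 0.41). The median log2 ratio of all 10844 genes compared in these cells was 0.44, so the sum lay at -0.05 relative to it. A gene was compared where it had at least 100 UMIs over both days, and it was called higher or lower on day 3 at a log2 ratio of at least 1 or at most -1. Of the compared genes, 26.6% were higher and 4.81% were lower. Of the 10 members, 2 were higher and 0 were lower, which is not above that background. The log2 ratios of the members ran from -0.34 for *Tap2*, above 13.9% of the compared genes, to 1.65 for *Psmb9*, above 87.4% of them. Relative to the median of all genes, *Psmb9* lay at 1.21, *Nlrc5* at 0.71, *B2m* at 0.36 and *H2-D1* at -0.47.

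*Psmb9*, which encodes the immunoproteasome subunit β1i, had the highest ratio of the 10 in these cells. Its level was 21.4 CPM (20.1 to 22.8) on day 1 and 67.2 CPM (64.9 to 69.5) on day 3, so it rose 3.14-fold (log2 ratio 1.65). The share of cells with a UMI was 18.4% on day 1 and 58.2% on day 3, where the median cells had 11149 and 13375 UMIs. With each cell thinned to 1000 UMIs, the shares were 1.96% and 7.16%. *Nlrc5*, the transactivator of class I genes, was the other member past the fold, at 4.77 CPM (4.15 to 5.45) and 10.6 CPM (9.69 to 11.6), a log2 ratio of 1.15. Its level is low, with a UMI in 5.28% and 13.6% of the cells, and its ratio was 0.92 with each cell thinned to 1000 UMIs.

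The other subunits and the transporter were within the fold. *Psmb8*, which encodes β5i, had 154 CPM (150 to 158) on day 1 and 237 CPM (233 to 241) on day 3, a log2 ratio of 0.62. *Psmb10*, which encodes β2i, had 93.9 CPM (91.1 to 96.8) and 119.6 CPM (116.6 to 122.8), a log2 ratio of 0.35. The subunits of the peptide transporter diverged. *Tap1* had 27.1 CPM (25.6 to 28.7) and 50.1 CPM (48.1 to 52.1), a log2 ratio of 0.88 that passed 1 in 2 of the 12 alternatives tried. *Tap2* had 24.1 CPM (22.7 to 25.5) and 19.0 CPM (17.8 to 20.3), a log2 ratio of -0.34.

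The genes of the class I molecule itself were abundant on both days. *B2m*, the light chain shared by all class I molecules, had 659.9 CPM (652.4 to 667.4) on day 1 and 1152 CPM (1142 to 1161) on day 3, a log2 ratio of 0.80. *H2-K1*, a classical heavy chain, had 595 CPM (588 to 602) and 789 CPM (781 to 797), a log2 ratio of 0.41. *H2-D1*, the other classical heavy chain of this strain, had 1065 CPM (1055 to 1074) and 1042 CPM (1033 to 1052), a log2 ratio of -0.03 that fell on either side of 0 under the alternatives. These neighbours in function therefore did not move by one factor, and the order of *B2m* against *H2-D1* was reversed between the days, on a scale of UMIs that is not divided by transcript length. *H2-T23*, which encodes Qa-1 and presents to NK cell receptors, had 60.8 CPM (58.5 to 63.1) and 70.4 CPM (68.0 to 72.8), a log2 ratio of 0.21. Nearly every cell held class I transcripts, since only 13 of 3847 cells on day 1 and 2 of 3069 on day 3 had no UMI of *H2-K1*, *H2-D1* and *B2m*. The median cell had 24.7 UMIs of the 10 genes per 10000 UMIs on day 1, with an interquartile range from 18.2 to 33.3, and 35.2 on day 3, from 26.7 to 47.9.

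**Figure D1:**
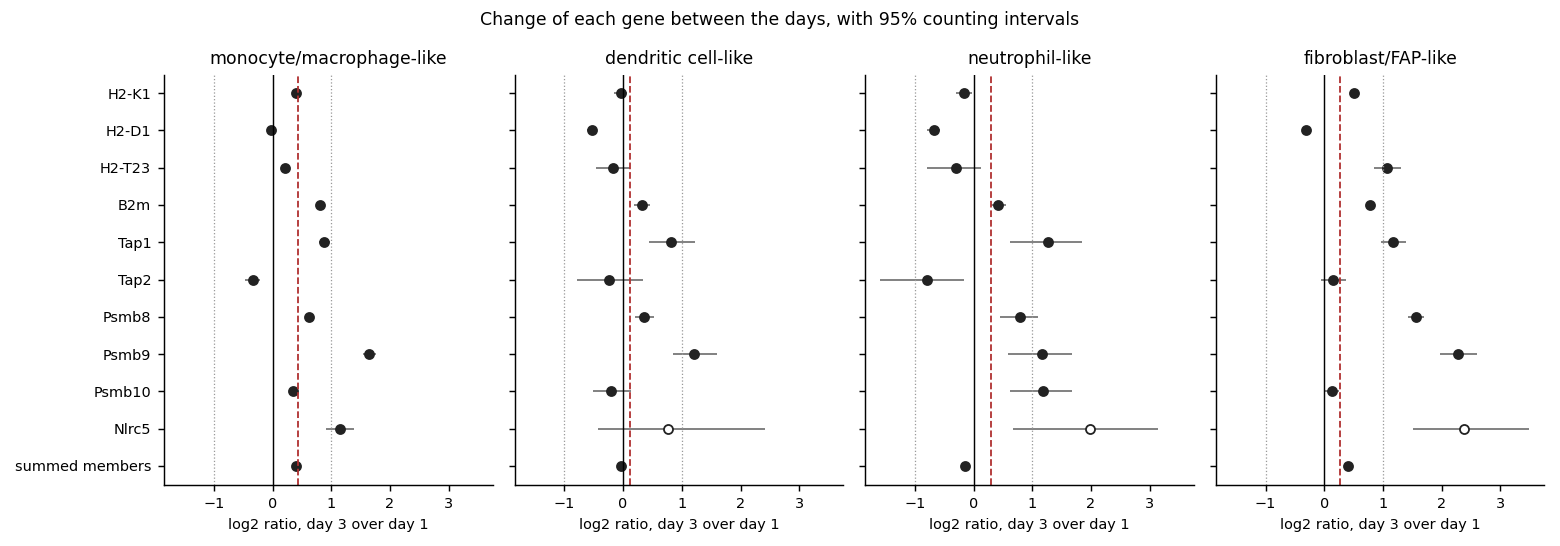
Log2 ratio of CPM, day 3 over day 1, of each of the 10 genes and of their sum in 4 cell types, with bars for the exact binomial 95% interval. The dashed red line is the median of all genes compared in that type, the dotted lines are at -1 and 1, and open circles are genes with under 100 UMIs. *Psmb9* lies above 1 in each of the 4 types and *H2-D1* below 0, by only 0.03 in monocyte/macrophage-like cells, where alternatives put it on either side.

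*Psmb9* was also past the fold in each of the 3 other types with enough cells on both days, with log2 ratios of 1.21 (0.85 to 1.599) in dendritic cell-like, 1.16 (0.58 to 1.68) in neutrophil-like and 2.27 (1.96 to 2.61) in fibroblast/FAP-like cells. *H2-D1* had a ratio below 0 in each, at -0.53 (-0.62 to -0.44), -0.68 (-0.80 to -0.57) and -0.31 (-0.36 to -0.27). In neutrophil-like cells the highest and lowest members compared were others, *Tap1* at 1.26 and *Tap2* at -0.80. The types are not replicates, since they share a library on each day.

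Fibroblast/FAP-like cells had the most members past the fold. There 4 of the 9 members compared were higher and 0 were lower, where 21.2% and 7.12% of 11226 genes were, and the median log2 ratio was 0.92 over the members and 0.26 over all genes. The members that rose were *Psmb9* from 5.05 to 24.5 CPM, *Psmb8* from 28.7 to 84.9 CPM (log2 ratio 1.56), *Tap1* from 12.7 to 28.7 CPM (1.17) and *H2-T23* from 11.2 to 23.5 CPM (1.07). The classical heavy chains stayed within the fold, with *H2-K1* at 226 and 321 CPM and *H2-D1* at 370.3 and 298 CPM, and so did *B2m* at 257 and 439.9 CPM. *Nlrc5* had 11 UMIs on day 1 and 77 on day 3, too few to be compared. Of these cells, 634 of day 1 were of a cluster led by *Cxcl5* and *Prg4* and 837 of day 3 were of a cluster led by *Sfrp2* and *Col3a1*, so the cluster and the day cannot be told apart. The 9 macrophage markers, all with UMIs on both days, summed to 312 CPM in these cells on day 1 and 1097 CPM on day 3, against 3874 and 8546 CPM in monocyte/macrophage-like cells, and their part in the ratios was not tested. The 4 markers of tenocytes (tendon cells) summed to 954 CPM in the fibroblast/FAP-like cells of day 1 and 297 CPM in those of day 3. Their part was not tested either. The call of *H2-T23* was lost in 3 of the 12 alternatives, with a lowest ratio of 0.44, that of *Tap1* in 2, with a lowest of 0.47, and that of *Psmb8* in 1, at 0.96.

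In dendritic cell-like cells, 1 of the 9 members compared was past the fold, where 11.3% of 3575 genes were higher and 2.71% lower. That count is near the share of all genes. The member was *Psmb9*, which rose from 91.3 to 212 CPM. Its call was lost in 3 of the 9 alternatives that gave a value, with a lowest ratio of 0.35. The sum of the 10 genes was 4855 CPM (4702 to 5013) on day 1 and 4727 CPM (4634 to 4821) on day 3, a log2 ratio of -0.04 whose interval, from -0.09 to 0.02, held 0. In these cells the 8 neutrophil markers summed to 763 CPM on day 1 and 15.4 CPM on day 3, with 3 of them at 0, and the 8 dendritic cell markers to 1383 and 727 CPM, and their part in the ratios was not tested.

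In neutrophil-like cells, 3 of the 9 members compared were higher and 0 were lower on day 3, where 26.7% and 10.2% of 4173 genes were, and the median log2 ratio was 0.60 over the members and 0.30 over all genes. These were *Tap1*, from 17.8 to 42.3 CPM (log2 ratio 1.26), *Psmb10*, from 25.03 to 55.95 CPM (1.17), and *Psmb9*, from 23.5 to 51.9 CPM. They rest on 31, 41 and 38 UMIs on day 3, and the calls were lost in 4, 6 and 2 of the 11 alternatives that gave a value, with lowest ratios of 0.57, 0.30 and 0.45. The abundant members went the other way or little, with *H2-D1* at 1441 and 897 CPM, *H2-K1* at 747 and 665 CPM and *B2m* at 607 and 812 CPM. The 255 cells of day 3 carried more RNA of other types. The 9 macrophage markers summed to 215 CPM on day 1 and 3012 CPM on day 3, and the 8 fibroblast markers to 124 and 2002 CPM, each marker with UMIs on both days, and their part in these ratios was not tested.

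**Figure D2:**
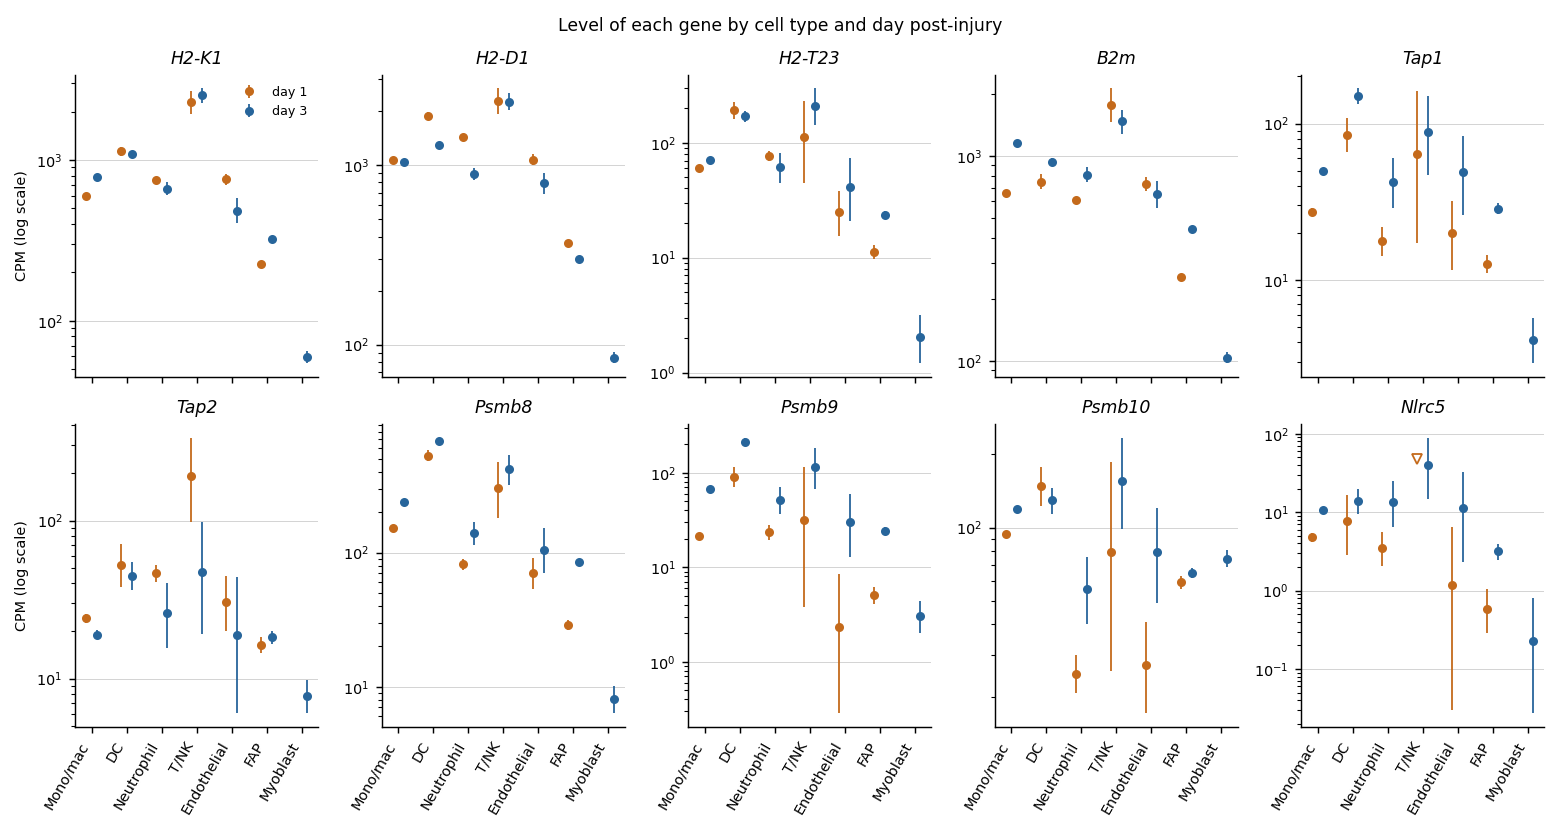
CPM (log axis) of each of the 10 genes in each cell type on days 1 and 3, with bars for the exact Poisson 95% interval. The open triangle stands at the limit of 3 UMIs where a gene had 0 UMIs. T/NK cell-like cells lie highest for *H2-K1*, *H2-D1* and *B2m*, and satellite cell/myoblast-like cells lowest of the types with at least 50 cells for 8 of the 10 genes.

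Across cell types the differences were larger than between days. Among the 10 combinations of type and day with at least 50 cells, the sum of the 10 genes ran from 4855 CPM in dendritic cell-like cells of day 1 down to 347 CPM (335 to 360) in satellite cell/myoblast-like cells of day 3, a ratio of 14.0. The dendritic cell-like values of the 2 days overlapped in their intervals. After them came monocyte/macrophage-like cells of day 3 and neutrophil-like cells of day 1 at 3070 CPM. Neutrophil-like cells of day 3 (2765 CPM), endothelial cell-like cells of day 1 (2739 CPM) and monocyte/macrophage-like cells of day 1 (2706 CPM) followed, each overlapping its neighbour. Fibroblast/FAP-like cells had 1307 CPM on day 3 and 988 CPM on day 1.

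Lymphocytes carried the most class I RNA in the few cells that were caught. In T/NK cell-like cells, the summed level was 7115 CPM (6471 to 7805) in 11 cells of day 1 and 7328 CPM (6898 to 7778) in 41 cells of day 3. *H2-K1* had 2287 CPM (1929 to 2692) and 2524 CPM (2274 to 2793) in them, more than in any other type. *Nlrc5* had 0 of 62969 UMIs on day 1, or 0 CPM (0 to 58.6), and 6 UMIs, or 40.6 CPM (14.9 to 88.4), on day 3.

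Endothelial cell-like cells of day 1 had class I levels near those of monocyte/macrophage-like cells, with *H2-K1* at 759 CPM (702 to 820), *H2-D1* at 1073 CPM (1004 to 1145) and *B2m* at 729.8 CPM (673.4 to 789.6). *Psmb9*, in contrast, had 2 UMIs in these 83 cells, or 2.36 CPM (0.29 to 8.52), an interval that holds the value of satellite cell/myoblast-like cells (3.04 CPM) and of fibroblast/FAP-like cells of day 1 (5.05 CPM). The 8 neutrophil markers summed to 3697 CPM in them, the 9 macrophage markers to 1316 CPM and the 4 erythroid markers to 1693 CPM, whose part in these levels was not tested.

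Satellite cell/myoblast-like cells, the muscle precursors, were at the other end. Their 200 cells of day 3 had 59.1 CPM (54.2 to 64.4) of *H2-K1*, 84.4 CPM (78.5 to 90.7) of *H2-D1*, 103.7 CPM (97.1 to 110.6) of *B2m* and 2.02 CPM (1.1995 to 3.199) of *H2-T23*. Because these cells were deep, with a median of 44104 UMIs, 94.0% of them still had a UMI of *B2m*, and 11% had one of *Psmb9*, which fell to 9.60% and 0.33% with each cell thinned to 1000 UMIs. *Psmb10* was the exception, at 74.5 CPM (69.0 to 80.4), above both fibroblast/FAP-like values and the neutrophil-like value of day 1. Its interval overlapped that of neutrophil-like cells of day 3, at 55.9 CPM (40.1 to 75.9). RNA free in the suspension was estimated from barcodes holding 100 UMIs or fewer. In satellite cell/myoblast-like cells it could supply from 1.61% of the level of a member, for *Psmb10*, up to 52.1%, for *Nlrc5*. The value of *Nlrc5* rests on 2 UMIs. The highest value of a member was 2.61% in monocyte/macrophage-like cells. On day 1 it was 9.78% in neutrophil-like, 13.5% in fibroblast/FAP-like and 22.01% in endothelial cell-like cells. The last of these is of *Psmb9*, also on 2 UMIs. The part of free RNA in the levels of muscle precursors was not tested.

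The levels of the 10 genes were set against each other across the 10 combinations of type and day. Over the 45 pairs, Pearson's r of log2 CPM had a median of 0.83 and a range from -0.01 to 0.98, with all points drawn from the same libraries. The pair most alike was *Tap1* with *Psmb8* (r of 0.98), and the pair least alike *Tap2* with *Psmb10*. The 9 pairs with *Psmb10* had r from -0.01 to 0.62, and the pair least alike without it was *Tap2* with *Nlrc5* (r of 0.59). *Psmb10* spanned a ratio of 5.91 between its highest and lowest combination, against 89.98 for *Psmb9*, whose lowest value rests on 2 UMIs. Another 10378 genes with at least 500 UMIs were set against the summed level of the 10 over these combinations. Those most like it included *Irak4*, *B4galnt1* and *Ubl3* (r of 0.98 each), then *Arhgdib*, *Tfeb*, *Man2b1* and *Uvrag* (r of 0.97 each). The abundant members weigh most in that sum. In monocyte/macrophage-like cells of day 1, *H2-D1*, *B2m* and *H2-K1* gave 48244, 29896 and 26958 of its 122584 UMIs.

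The make-up of the catalytic core shifted between the days. The share of immunoproteasome subunits (*Psmb8*, *Psmb9*, *Psmb10*) in the UMIs of these genes and their constitutive partners (*Psmb5*, *Psmb6*, *Psmb7*) compares one set of 6 genes between groups and is not a ratio of proteins. In monocyte/macrophage-like cells the share was 28.9% (28.5 to 29.4) on day 1 and 38.4% (38.0 to 38.8) on day 3. The immunoproteasome genes summed to 269 and 424 CPM, and the constitutive partners to 661 and 679.7 CPM. None of the 3 partners was past the fold, and their median log2 ratio was -0.11. By pair, *Psmb8* of *Psmb8* and *Psmb5* went from 37.1% to 49.6%, *Psmb9* of *Psmb9* and *Psmb6* from 6.92% to 16.3%, and *Psmb10* of *Psmb10* and *Psmb7* from 45.3% to 56.4%. The 11 other subunits of the 20S core, which both kinds of proteasome share, had a median log2 ratio of -0.10, and none was past the fold. Of all 10844 genes compared in these cells, 26.6% were higher and 4.81% lower, with a median of 0.44. The medians of the partners and of the other 20S subunits thus lay below that of all genes. Relative to it, *Psmb8* lay at 0.18, *Psmb9* at 1.21 and *Psmb10* at -0.09. Of the windows at the end of *Psmb5*, 33.5% also occur in *Gm3375*, so its count may be low on both days.

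**Figure D3:**
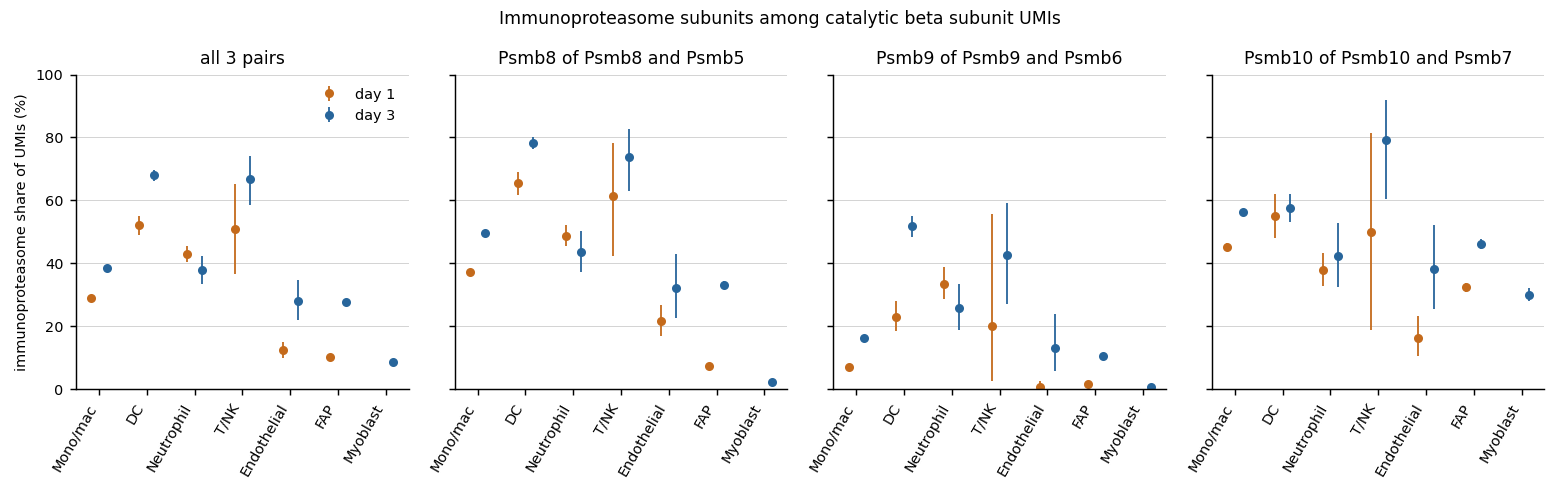
Share of immunoproteasome subunits (percent of UMIs) in each cell type on days 1 and 3, over all 3 pairs and for each pair of subunits, with bars for the Clopper-Pearson 95% interval. The share over all pairs lies between 8.65% in satellite cell/myoblast-like cells and 67.9% in dendritic cell-like cells of day 3.

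The share differed more between types than between days. Dendritic cell-like cells had 52.0% (49.1 to 55.0) on day 1 and 67.9% (66.3 to 69.6) on day 3, with the immunoproteasome genes at 769 and 1021 CPM and their partners at 709 and 482 CPM. In fibroblast/FAP-like cells the share went from 10.3% (9.86 to 10.8) to 27.7% (27.0 to 28.4), with the immunoproteasome genes at 93.3 and 174.5 CPM and the partners at 811 and 456 CPM. Both sides of the share moved there, since *Psmb5* fell from 362 to 172 CPM. Neutrophil-like cells had 42.9% (40.4 to 45.4) on day 1 and 37.8% (33.5 to 42.3) on day 3, with overlapping intervals, and *Psmb10* of *Psmb10* and *Psmb7* was 37.9% (32.7 to 43.3) and 42.3% (32.3 to 52.7) in them. In these cells all 11 other subunits of the 20S core were past the fold upwards (median log2 ratio 1.48), where 26.7% of all genes were. So were 2 of the 3 constitutive partners, beside the macrophage and fibroblast markers given above. In T/NK cell-like cells the share was 51.0% (36.6 to 65.2) and 66.7% (58.6 to 74.1), with overlapping intervals. Endothelial cell-like cells had 12.3% (9.94 to 14.98) in 83 cells of day 1 and 27.9% (21.9 to 34.6) in 27 cells of day 3. Both types had too few cells for a comparison of the days. In the endothelial cell-like cells, pericyte and smooth muscle markers summed to 338 and 1586 CPM, fibroblast markers to 60.1 and 695 CPM and neutrophil markers to 3697 and 120 CPM. Their part in the shares was not tested. Satellite cell/myoblast-like cells of day 3 had 8.65% (8.07 to 9.25), of which nearly all was *Psmb10*, with 663 of 762 UMIs.

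**Figure D4:**
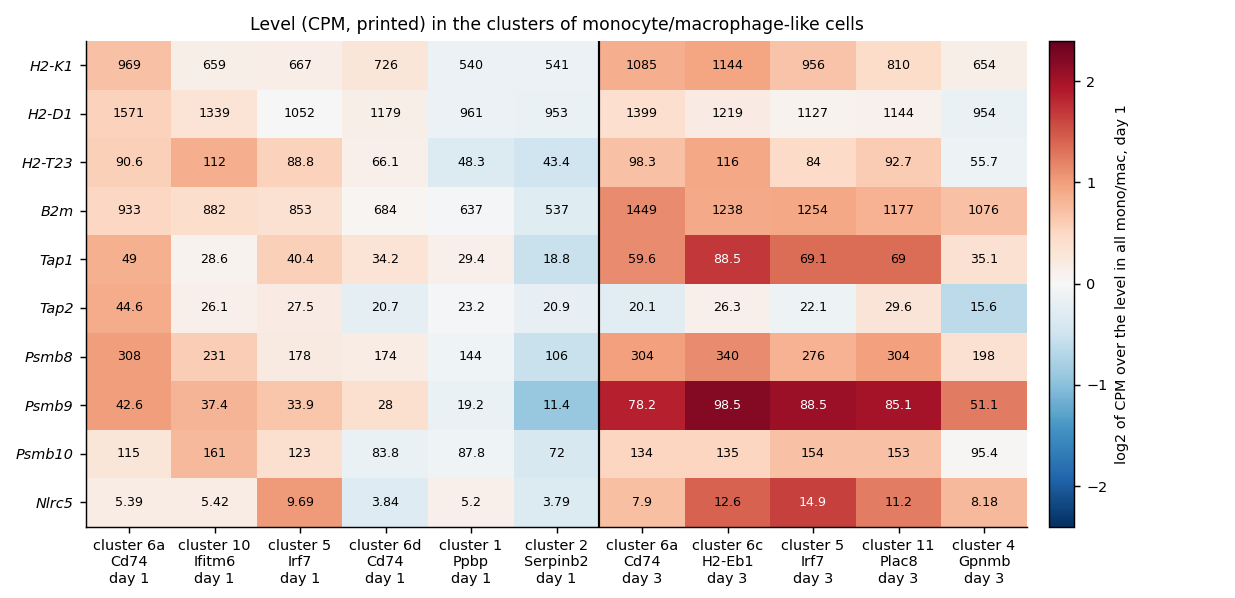
Heat map of CPM of each of the 10 genes in each monocyte/macrophage-like cluster with at least 50 cells on a day, with clusters named by their leading genes. Colours are scaled on a log axis, and the clusters of day 3 have higher values than those of day 1 for *B2m* and *Psmb9*.

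The monocyte/macrophage-like cells of the 2 days were largely different clusters, formed without the 10 genes among the features used. Day 1 was led by a *Ppbp* and *Arg1* cluster with 1392 cells and a *Serpinb2* and *Il1a* cluster with 1359, which held 13 and 10 cells of day 3. Day 3 was led by a *Gpnmb* and *Syngr1* cluster with 1293 cells and an *Irf7* and *Rsad2* cluster with 1093, which held 18 and 72 cells of day 1. Where nearly all cells of a cluster come from 1 library, the cluster and the library cannot be told apart.

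For *B2m* and *Psmb9*, the level in each cluster of day 3 with at least 50 cells was above that in each such cluster of day 1. *Psmb9* ran from 11.4 CPM in the *Serpinb2* and *Il1a* cluster to 42.6 CPM over the 6 clusters of day 1, and from 51.1 CPM in the *Gpnmb* and *Syngr1* cluster to 98.5 CPM over the 5 clusters of day 3. The nearest of these overlapped, with 42.6 CPM (34.1 to 52.6) in the *Cd74* and *H2-Aa* cluster of day 1 and 51.1 CPM (48.4 to 53.9) in the *Gpnmb* and *Syngr1* cluster. *B2m* ran from 537 to 933 CPM on day 1 and from 1076 to 1449 CPM on day 3. *H2-D1*, in contrast, ran from 953 to 1571 CPM on day 1 and from 954 to 1399 CPM on day 3, so its ranges overlapped, and *Tap1* ran from 18.8 to 49.0 CPM and from 35.1 to 88.5 CPM. A pair of clusters matched the classical monocyte markers best. The *Ifitm6* and *Chil3* cluster had 231 CPM of *Psmb8* and the highest *H2-T23* of day 1, at 111.5 CPM (103.2 to 120.4). The *Plac8* and *Ly6c2* cluster of day 3 had 304 CPM of *Psmb8* and the highest *Tap2* of that day, at 29.6 CPM (23.7 to 36.6). Both of these intervals overlapped those of other clusters of the same day. The 8 neutrophil markers summed to 2495 CPM in the former and, with 1 of them at 0, to 2477 CPM in the latter, and their part in these levels was not tested. The immunoproteasome share was lowest in the *Serpinb2* and *Il1a* cluster, at 23.02%, and highest in a *H2-Eb1* and *H2-Ab1* cluster of day 3, at 55.5%. That cluster is led by MHC class II genes, as was the cluster with the highest sum of the 10 genes, at 4128 CPM on day 1 and 4635 CPM on day 3.

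The clusters with at least 50 cells on both days allowed a comparison within a cluster, chosen after seeing the data. In the *Irf7* and *Rsad2* cluster, the sum was 3072 CPM in 72 cells of day 1 and 4044 CPM in 1093 cells of day 3, a log2 ratio of 0.40 (0.33 to 0.46). There *Psmb9* was higher, at 33.9 and 88.5 CPM (log2 ratio 1.35, 0.77 to 2.08), and it was the only member of the 10 past the fold, where 14.3% of 8237 genes were higher and 3.38% lower. *Nlrc5* had 6 UMIs on day 1 and 214 on day 3, a ratio of 0.51 (-0.52 to 2.08). The interval spans both no change and the fold, so these cells cannot show whether the call of *Nlrc5* holds within this cluster. The 8 neutrophil markers summed to 4675 CPM in the 72 cells of day 1 and 414 CPM in the cells of day 3, and their part in these ratios was not tested. In the *Cd74* and *H2-Aa* cluster, with 179 and 94 cells, no member was higher past the fold and *Tap2* fell from 44.6 to 20.1 CPM (log2 ratio -1.13, -1.82 to -0.52), where 8.27% of 3930 genes were higher and 4.30% lower. *B2m* had a ratio of 0.64 (0.54 to 0.73) and *Psmb9* of 0.87 (0.46 to 1.30) in that cluster. The 8 dendritic cell markers summed to 482 CPM there on day 1, with 1 of them at 0, and 73.2 CPM on day 3, with 2 at 0, and their part in these ratios was not tested.

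The genes around the pathway moved unevenly in monocyte/macrophage-like cells. Of the 8 genes of peptide loading, which fold the heavy chain and edit its peptide, none was past the fold, and their median log2 ratio was 0.63. The nearest were the trimming peptidase *Erap1*, at 19.1 and 36.9 CPM, and the TAP-binding chaperone *Tapbp*, at 92.7 and 154.3 CPM. Of 11 other class I and class I-like heavy chains compared, 4 rose and 1 fell, shares near the 26.6% and 4.81% of all genes. *Mr1*, which presents vitamin metabolites to MAIT cells, went from 0.49 to 6.75 CPM, *Hfe*, a regulator of iron uptake, from 11.9 to 56.5 CPM, *H2-T22* from 17.2 to 35.6 CPM and *H2-T24* from 1.66 to 4.64 CPM. *H2-Q10* fell from 7.28 to 2.18 CPM. Of 8 genes of the PA28 activator and proteasome assembly, 1 was higher, *Psmg3*, at 10.9 and 22.5 CPM.

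**Figure D5:**
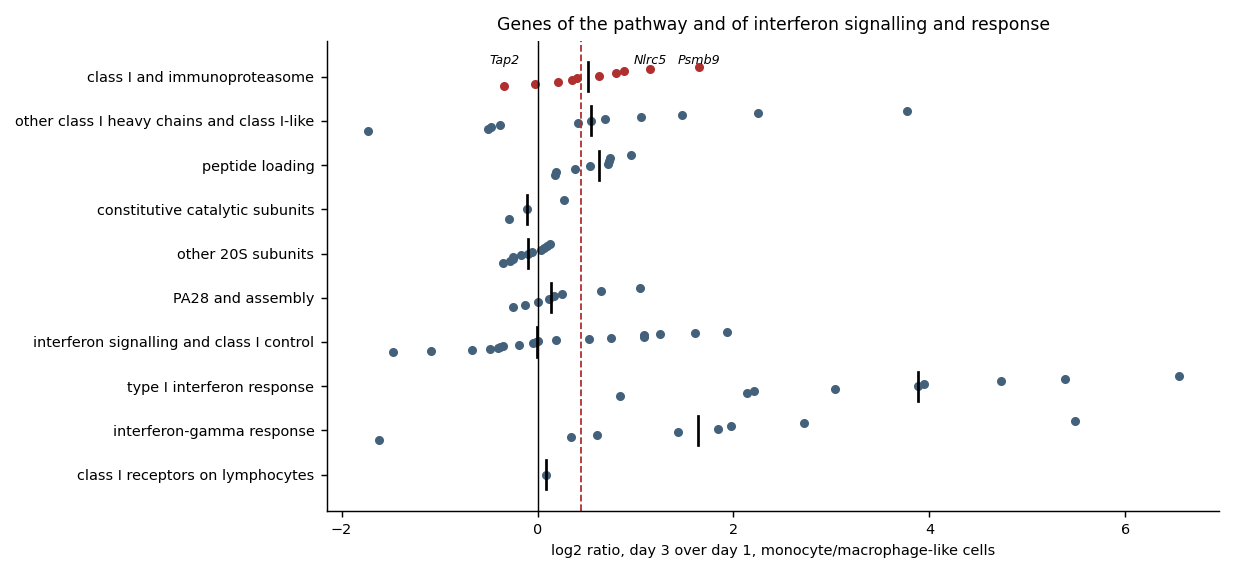
Log2 ratio of CPM, day 3 over day 1, in monocyte/macrophage-like cells for the 10 genes and for each list of related genes, with 1 point per gene of at least 100 UMIs and a bar at the median of each list. The type I interferon list has a median of 3.88, against 0.51 for the 10 genes and -0.10 for the other 20S subunits.

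Of 9 type I interferon-response genes compared, 8 rose, where 26.6% of all genes did, with a median log2 ratio of 3.88, among them *Ifit3* from 1.92 to 51.3 CPM and *Rsad2* from 13.5 to 110.5 CPM. Of 8 interferon-gamma-response genes compared, 5 rose and *Cd274*, the inhibitory ligand PD-L1, fell from 33.9 to 11.03 CPM. Of 20 genes of interferon signalling and class I control, 6 rose and 2 fell, where 26.6% and 4.81% of all genes did. *Irf7*, a factor that amplifies the type I interferon response, went from 43.9 to 133.6 CPM. *Irf1* fell from 51.1 to 23.995 CPM and *Nfkb1* from 307 to 110.5 CPM.

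In fibroblast/FAP-like cells all 9 type I interferon-response genes and 8 of 9 interferon-gamma-response genes rose, where 21.2% of 11226 genes did. Among them were *Cxcl10*, from 18.4 to 192.8 CPM, and *Iigp1*, from 3.66 to 41.8 CPM. *Irf1* had 50.2 and 62.3 CPM and *Nfkb1* 246 and 189.6 CPM there, both within the fold. In the same cells 7 of 9 class I and class I-like heavy chains rose, with *H2-Q7* from 3.29 to 11.9 CPM and *Fcgrt*, the neonatal Fc receptor, from 36.9 to 124 CPM.

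The ligands themselves were rare. *Ifng*, encoding interferon-gamma, was found in T/NK cell-like cells of day 3, with 66 UMIs, or 446.6 CPM (345.4 to 568.2). On day 1 it had 0 of 62969 UMIs in the 11 T/NK cell-like cells, or 0 CPM (0 to 58.6). Elsewhere it had 2 UMIs in monocyte/macrophage-like and 1 in fibroblast/FAP-like cells of day 3. *Ifnb1*, encoding interferon-beta, had 31 UMIs in monocyte/macrophage-like cells of day 1 and 8 in those of day 3. Among the receptors that read class I, *Cd8a*, the co-receptor of cytotoxic T cells, had 16 UMIs and *Klrd1*, a chain of NK cell receptors, 76 UMIs in the T/NK cell-like cells of day 3.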

How the data were processed

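Single-cell RNA-seq of quadriceps mononuclear cells was analysed at 1 and 3 days after injury, 1 library each. Raw UMI counts of every gene in every barcode, from 10x Genomics 3-prime libraries, were deposited by the authors, and neither normalized nor limited to cells. The submitters' processing notes name Cell Ranger 5.0.0 and mm10, while the matrix headers name software version 4. Over all barcodes, the libraries of days 1 and 3 held 74852240 and 102565783 UMIs, and over the cells 71141227 and 84177707.

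Cells were normalized with SCTransform (sctransform 0.4.2, Seurat 5.3.0, R 4.3.3) and clustered with 10 PCs at a resolution of 0.8, leaving the members, the related genes and the naming markers out of the variable features. A mixed cluster of antigen-presenting and lymphoid cells was clustered again. Doublets were kept. CPM, shares and intervals were computed in Python 3.11.15 (numpy 2.4.6, scipy 1.17.1, pandas 2.3.3), log2 ratios with 0.5 added to each count. Counts of 10844 genes of monocyte/macrophage-like cells were simulated as Poisson draws, with no variation among cells, mice or libraries. All 200 genes changed by 1.5 on the log2 scale passed the fold, 0 unchanged genes did, and 95.3% of the intervals covered the simulated ratio. The intervals rest on the same Poisson model, so this checks the computation and not the calls in these data.

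The members, the 91 related genes and the lists were chosen with earlier results of these data known, and the genes named are the members, genes of these lists, the genes most alike in pattern and the leading genes of clusters. Some of these genes are counted but not reported here by name. *Mx1* and *H2-T10* are listed but were not found among the measured genes. One choice at a time was changed among cell calling, mitochondrial limit, doublets, normalization, PCs, resolution, clustering per library, naming, the summary of CPM, ambient RNA, the genes in the total and depth. Its uninjured and dystrophic muscles were not used here.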

Additional observations from a re-analysis of the deposited data

How the results depend on the processing

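In monocyte/macrophage-like cells, the log2 ratio of the summed members stayed above 0 under all 12 alternatives, between 0.36 and 0.51. The values below give the ratio, the summed CPM of days 1 and 3 and, in percent, the immunoproteasome shares of days 1 and 3. With cells called at 10% of the 99th percentile of UMIs they were 0.36, 2755 and 3538 CPM, 29.8% and 38.1%. With a mitochondrial limit of 15% they were 0.40, 2744 and 3616 CPM, 29.6% and 40.2%. With doublets removed they were 0.43, 2596 and 3501 CPM, 27.8% and 37.6%. With log-normalization they were 0.41, 2685 and 3562 CPM, 28.5% and 38.9%. With 20 PCs they were 0.41, 2726 and 3610 CPM, 29.2% and 40.1%, and at a resolution of 0.4 the share of day 3 was 38.9%. With each library clustered on its own they were 0.44, 2596 and 3518 CPM, 28.02% and 37.8%. With each cell named by its highest marker score they were 0.40, 2742 and 3622 CPM, 29.6% and 38.9%. As the mean of the CPM of single cells they were 0.51, 2761 and 3931 CPM, 29.3% and 42.9%. With ambient RNA subtracted, the sum of day 3 was 3586 CPM. With mitochondrial, ribosomal protein and haemoglobin genes left out of the total, they were 0.42, 3230 and 4311 CPM. With each cell thinned to 1000 UMIs they were 0.51, 2734 and 3898 CPM, 29.9% and 43.1%. The cause of these differences was not tested.

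Members past the fold upwards in these cells numbered 2 or 3 under the 12 alternatives and 0 were past it downwards. With thinning, *Tap1* (1.41) was past the fold and *Nlrc5* (0.92) was not, and by the mean of single cells *Tap1* (1.12) was the additional member. *H2-D1* lay on either side of 0, between -0.06 and 0.06. The other 9 of the 10 kept their direction in all 12. Using the cells of a single cluster was chosen after seeing the data. In the *Irf7* and *Rsad2* cluster the sums were 3072 and 4044 CPM, the shares 34.9% and 47.1%, and 1 member was past the fold upwards. In the *Cd74* and *H2-Aa* cluster the ratio was 0.17, the sums 4128 and 4635 CPM, the shares 39.4% and 43.8%, with 0 members past the fold upwards and 1 downwards.

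In the other types, 79 of 90 values of a member kept their side of the fold in dendritic cell-like, 96 of 110 in neutrophil-like and 114 of 120 in fibroblast/FAP-like cells. Alternatives that left fewer than 50 cells of a type on a day gave no value, which left 9 for dendritic cell-like and 11 for neutrophil-like cells. Thinning to 3000 UMIs in place of 1000 gave shares of cells with the same sign of change between the days for all 10 members in monocyte/macrophage-like cells. No paired analysis was possible because the libraries come from different mice and carry no replicate numbers. With 1 library per day, the variation between mice and captures, and any effect of the differing barcode lists, cannot be told apart from the day. The intervals cover counting error only. Levels of T/NK cell-like and endothelial cell-like cells rest on few cells, and *Nlrc5* on few UMIs outside monocyte/macrophage-like cells.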

Other observations

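The class I receptor gene *Klrd1*, which encodes the CD94 chain of NK cell receptors for Qa-1, had UMIs beyond the lymphocytes. It had 352.5 CPM (312.0 to 396.8) in dendritic cell-like cells of day 1 and 281 CPM (259 to 305) in those of day 3, and 514 CPM (405 to 644) in T/NK cell-like cells of day 3. In monocyte/macrophage-like cells it had 3.88 and 4.11 CPM. The 8 T/NK cell markers summed to 0 CPM in the dendritic cell-like cells of day 1 and 0.96 CPM in those of day 3. Doublets were kept, and their part in the level of *Klrd1* was not tested.

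*Irf8*, a factor of myeloid and dendritic cell development, had 55.3 CPM in the 60 dendritic cell-like cells of day 1 and 460.5 CPM in the 189 of day 3, a log2 ratio of 3.04 (2.62 to 3.53), while the sum of the class I genes in the same cells had a ratio of -0.04.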
